A study of Mus musculus with 36 samples.

Results

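The Ikaros line and the control line of B3 cells were compared 2 h after the addition of 4-hydroxy-tamoxifen (4-OHT), over all 469 miRNAs of the deposited table. B3 is a mouse pre-B cell line, that is, it stands at an early stage of B cell development. Its Ikaros line was transduced with an MSCV retrovirus that encodes haemagglutinin-tagged wild type Ikaros joined to ERt2, the part of the estrogen receptor that binds hormone, and, after an internal ribosomal entry site, GFP. The control line received ERt2 and GFP from the same kind of vector, without Ikaros. Both lines were sorted on GFP, so each line was a transduced population of its own. Of the 36 samples of the series, 6 were compared here, with 3 of the control line and 3 of the Ikaros line at 2 h, all of them exposed to 0.5 uM 4-OHT. The 0 h samples of both lines, with 3 per line, served as the comparison before induction. The labels give 0.5 uM 4-OHT for these as well, whereas the methods of the study describe them as untreated. Replicates are numbered 1, 2 and 4 in the labels, and samples of both lines with the same number at 2 h share a culture batch.

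Ikaros is a zinc finger transcription factor of lymphocytes. The ERt2 fusion is held in the cytoplasm and enters the nucleus when 4-OHT binds it, and in B3 cells nuclear Ikaros drives the passage from a cycling to a resting pre-B stage. Mature miRNAs are short RNAs cut from the arms of a hairpin precursor. They guide Argonaute proteins to messenger RNAs, mainly through the seed at their 5′ end, and lower the output of those messenger RNAs. Mature miRNAs are often long-lived, and several hairpins can be cut from a single primary transcript, so that clustered miRNAs tend to be present together. The table holds miRNAs alone, and the messenger RNA of Ikzf1, the gene of Ikaros, was not measured in it.

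The sequences below belong to the 4 groups of miRNAs on which the comparison turned. They are RefSeq mature sequences of the assembly GRCm38.p6, written 5′ to 3′, with the seed (bases 2 to 8) in capitals. A RefSeq sequence was matched by name to 391 of the 469 miRNAs and to 49 of the 53 miRNAs that passed the test at 2 h. The first set comes from hairpins in introns of Clcn5 on chromosome X, between chrX:7237683-7248497 on the minus strand (GRCm38), which was the largest group higher in the Ikaros line. The mature miR-532-5p also belongs to it.
miR-188-5p: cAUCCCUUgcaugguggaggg
miR-188-3p: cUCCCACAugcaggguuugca
miR-362-5p: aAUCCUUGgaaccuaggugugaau
miR-362-3p: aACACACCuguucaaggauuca
miR-500-5p: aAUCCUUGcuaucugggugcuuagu
miR-500-3p: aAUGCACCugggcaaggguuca
miR-501-5p: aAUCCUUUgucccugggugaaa
miR-501-3p: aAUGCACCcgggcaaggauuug
miR-532-3p: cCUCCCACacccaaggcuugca

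The miR-10 miRNAs showed the largest line difference of the table. The hairpin of miR-10a lies in the Hoxb cluster at chr11:96317165-96317274 on the plus strand, between annotated genes, and that of miR-10b in introns of Hoxd3 and Hoxd4 at chr2:74726070-74726137 on the plus strand.
miR-10a-5p: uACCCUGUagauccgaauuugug
miR-10b-5p: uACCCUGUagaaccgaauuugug
miR-10a-3p: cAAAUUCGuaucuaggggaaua

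The next set comes from the imprinted Dlk1-Dio3 region, between chr12:109592846-109743795 on the plus strand, and holds the largest line differences in the other direction.
miR-127-3p: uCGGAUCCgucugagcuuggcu
miR-541-5p: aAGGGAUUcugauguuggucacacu
miR-411-5p: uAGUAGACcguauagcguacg
miR-410-3p: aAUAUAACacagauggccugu

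The last set is made from the cluster of miR-200b, miR-200a and miR-429 in an intron of Ttll10, between chr4:156053905-156055750 on the minus strand.
miR-200a-5p: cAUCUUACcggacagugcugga
miR-200a-3p: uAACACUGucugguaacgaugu
miR-429-3p: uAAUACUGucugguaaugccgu

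Among the miRNAs that passed the test, 3 seeds were each shared by a pair, namely ACCCUGU by miR-10a-5p and miR-10b-5p, AUCCUUG by miR-362-5p and miR-500-5p, and AUGCACC by miR-500-3p and miR-501-3p. In every one of these pairs both members were higher in the Ikaros line, and no other miRNA of the table with a matched sequence carries those seeds. The miR-10 pair differs by the single substitution U12A, counted from the 5′ end of miR-10a-5p, and how reads with a mismatch were assigned between them was not examined here. The pair miR-500-3p and miR-501-3p differs by 4 substitutions (U9C, G18A, C21U and A22G), all of them outside the seed.

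The values are normalised levels on the log2 scale, and a line difference is the Ikaros mean minus the control mean on that scale, with its standard error (SE) from limma. A miRNA was called when its adjusted p-value (limma, Benjamini-Hochberg over 469 miRNAs) was under 0.05. Sample medians at 2 h were between 3.89 and 4.15, and the 10 most abundant miRNAs held between 75.8% and 82.6% of the linear total of a sample. The table gives no counts, so depth is unknown. Each mean rests on 3 replicates per line, and the SE draws on the residuals of all 36 samples of the model. Within a line, the correlation between samples across the 469 miRNAs ranged from 0.977 to 0.992, and between samples of different lines and different numbers from 0.969 to 0.983. Ikaros replicate 4 stood apart in its linear composition, since miR-10a-5p held 31.7% of its total and was its most abundant miRNA, whereas miR-191-5p led in the other 5 samples.

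At 2 h, 53 of the 469 miRNAs (11.3%) differed between the lines. Of these, 34 were higher in the Ikaros line (7.25%) and 19 were lower (4.05%). In each of the 53 all 3 pairs of samples with the same number had one sign, as they did in 200 of all 469 miRNAs. The 53 were chosen by a test on these same values, so their agreement in sign is a description. The line differences of all miRNAs ran from -2.55 to 3.58 around a median of 0.04. The 3 samples of one line did not overlap the 3 of the other for 51 of the 53 called miRNAs and for 122 (26.0%) of all miRNAs. A difference of at least 1 on the log2 scale, a doubling of the level, was found for 24 of the higher and 10 of the lower miRNAs. The count was 47 when Ikaros replicate 4 was left out and fell to 34 without Ikaros replicate 2. After quantile normalisation it was 51, with 24 higher and 27 lower. It was 16 (13 higher, 3 lower) when only the 6 samples at 2 h entered the model, and all 16 were among the 53.

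The design of the study places all 3 Ikaros samples of 2 h in one sequencing batch and all 3 control samples of 2 h in the other, and no sample of 2 h was sequenced in both. Line and sequencing batch at 2 h therefore cannot be told apart within these 6 samples, and the values rest on the batch correction of the authors. With the sequencing batch as a covariate over all 36 samples, estimated from samples of other times that were run in both batches, 11 miRNAs were called (9 higher, 2 lower), and 10 of them were among the 53. These 10 were miR-126a-3p, miR-10a-3p, miR-128-2-5p, miR-188-3p, miR-362-5p, miR-501-3p, miR-532-3p and miR-532-5p, which were higher, and miR-127-3p and miR-21a-5p, which were lower. All 53 kept their direction under that model. Within the control line, where the samples of 2 h and those of 24 h lie mostly in different sequencing batches, 0 of the 469 miRNAs differed between 2 h and 24 h (limma, 0%), with 33 at an unadjusted p under 0.05. The median of that difference was -0.14 over the 34 miRNAs higher at 2 h and 0.15 over the 19 lower ones, against -0.04 over all miRNAs. The control values of 2 h enter both the choice of these miRNAs and this difference, so these medians are a description.

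**Figure D1:**
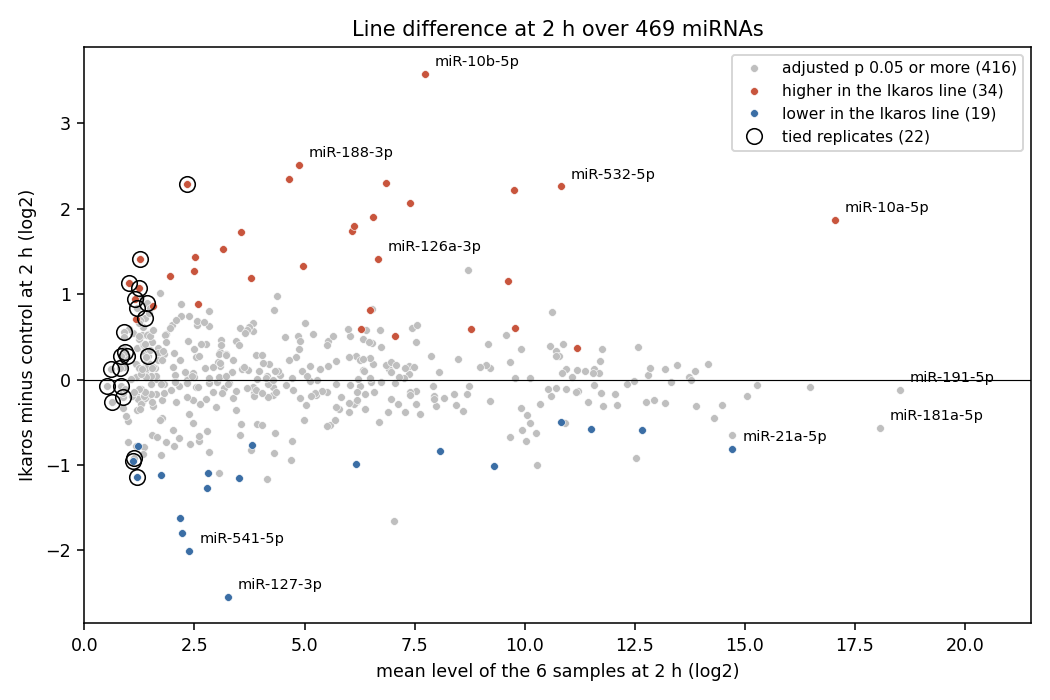
Line difference at 2 h (Ikaros minus control, log2) against the mean level of the 6 samples (log2), with 1 point per miRNA. The 34 higher miRNAs are in red, the 19 lower in blue, and a black ring marks the 22 miRNAs with replicates tied at one exact value, all at a mean level of 2.33 or lower.

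Called miRNAs were found at all levels. They made up 10 of the 118 miRNAs in the lowest quartile of mean level, 16 of 117 in the next, 12 of 117 in the one above and 15 of 117 in the highest. The line difference was nearly unrelated to the level (Pearson r = -0.03 across 469 miRNAs), to the GC content of the mature sequence (r = 0.10 across 391 miRNAs) and to its length (r = -0.05 across 391 miRNAs). These correlations run across miRNAs, which are not independent replicates, and all points share the same 6 libraries. Median GC content was 45.5% for the called higher, 46.5% for the called lower and 50.0% for the other miRNAs with a matched sequence.

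All 10 miRNAs measured from the Clcn5 cluster were higher in the Ikaros line, by 1.53 to 2.52 with a median of 2.15, and in all 10 the lines did not overlap. These miRNAs share the introns of Clcn5, which encodes a chloride and proton exchanger of endosomes. The share of all miRNAs that were called higher was 7.25%. Each of the 10 was still called in at least 2 of the 6 fits that left out 1 sample, and between 9 and 10 of them were called in each such fit. The exception in every case was miR-500-5p. With the sequencing batch as a covariate 5 of the 10 were called, and with only the 6 samples of 2 h, 6 were.

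The largest difference of the cluster was that of miR-188-3p. Its level was 3.45, 3.55 and 3.85 in control replicates 1, 2 and 4, and 5.95, 6.23 and 6.23 in the Ikaros replicates. The line difference was 2.52 (SE 0.33, adjusted p = 2.48e-06, limma), a 5.72-fold higher level. Its partner miR-188-5p was at 3.14, 3.62 and 3.66 in the control samples and at 6.14, 6.06 and 5.26 in the Ikaros samples, a difference of 2.34. Neither arm overlapped between the lines.

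The most abundant miRNA of the cluster was miR-532-5p, at 9.29, 10.06 and 9.75 in the control line and 12.23, 12.19 and 11.47 in the Ikaros line. Its difference of 2.26 (SE 0.23, adjusted p = 3.80e-08, limma) was close to that of miR-532-3p from the other arm, at 2.07. Next in abundance was miR-501-3p, whose control samples lay within 8.61 and 8.71 and whose Ikaros samples were at 11.36, 10.64 and 10.59. For miR-362-5p the control values were 5.75, 5.12 and 6.19 and the Ikaros values 7.78, 7.87 and 8.31, a difference of 2.30. In miR-500-3p, miR-362-3p, miR-501-5p and miR-532-3p, Ikaros replicate 4 was the lowest of its line, and it was still above every control sample.

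Both 5p miRNAs of the miR-10 family were higher in the Ikaros line, as was miR-10a-3p. The miR-10 hairpins lie among the Hox genes, and the family is known from early blood progenitors and myeloid cells. The level of miR-10b-5p was 5.89, 4.89 and 7.02 in control replicates 1, 2 and 4, and 8.37, 9.49 and 10.70 in the Ikaros replicates. This difference of 3.58 (SE 0.68, adjusted p = 3.34e-04, limma), a 12.0-fold higher level, was the largest of the table, and its spread was wide in both lines, with an SD of 1.06 in the control line and 1.16 in the Ikaros line.

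For miR-10a-5p the control values were 15.85, 15.63 and 16.86 and the Ikaros values 16.89, 17.81 and 19.27. The lines were separated by the narrow gap between control replicate 4 and Ikaros replicate 1, and the difference of 1.87 (SE 0.57, adjusted p = 0.034, limma) was still called in 2 of the 6 fits that left out a sample. As a share of the linear total it made up 4.29%, 3.87% and 7.74% of the control samples and 11.1%, 16.9% and 31.7% of the Ikaros samples. The 6 samples stood in the same order for miR-10b-5p, whose share was at most 0.0084% in the control line and between 0.0303% and 0.0834% in the Ikaros line. The 3p arm of miR-10a was far less abundant and tighter, with 5.36, 5.42 and 4.88 in the control line and 6.86, 7.05 and 6.96 in the Ikaros line. Its difference of 1.74 (SE 0.25, adjusted p = 1.02e-05, limma) was called in all 16 alternative fits. Of the 8 measured members of the family of miR-10, miR-99, miR-100 and miR-125, these 3 were higher, against 7.25% of all miRNAs. The other 5 did not pass the test, with miR-100-5p at -0.79 as the lowest of them.

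**Figure D2:**
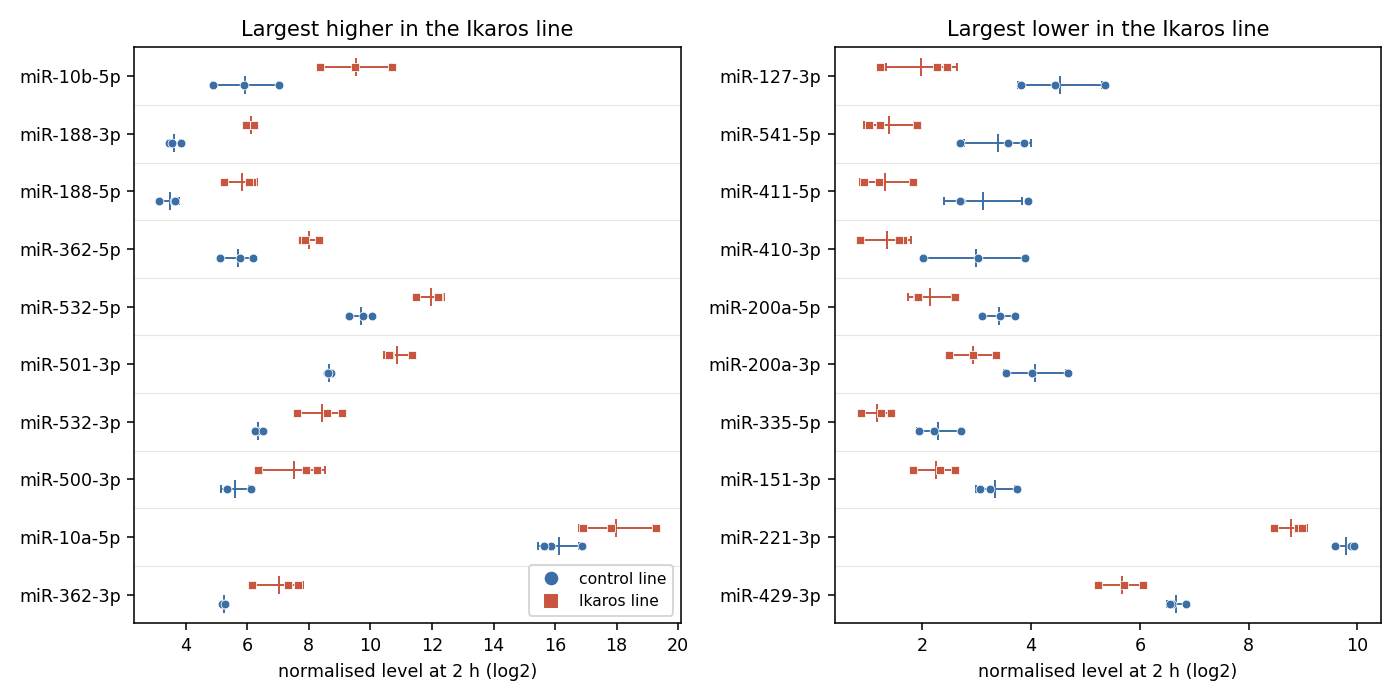
Normalised level at 2 h (log2) of the 10 largest higher and the 10 largest lower miRNAs without tied replicates, with 1 point per sample, blue circles for the control line and red squares for the Ikaros line, and a bar for the mean ± SD of 3 replicates. In all 20 rows the points of the lines do not overlap, and the narrowest gap on the left is that of miR-10a-5p (16.86 against 16.89).

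Other miRNAs higher in the Ikaros line came from single hairpins. The level of miR-126a-3p, a miRNA of endothelium and blood stem cells cut from a transcript of Egfl7 (chr2:26591357-26591429, plus strand), was 5.94, 6.12 and 5.82 in the control line and 7.22, 7.62 and 7.28 in the Ikaros line. The difference was 1.41 (SE 0.18, adjusted p = 1.15e-06, limma), and it was called in all 16 alternative fits. For miR-146a-5p, which is induced by NF-kB and restrains Toll-like receptor signalling, the control samples were at 9.06, 8.77 and 9.27 and the Ikaros samples at 10.00, 10.09 and 10.48. Its difference was 1.16 (SE 0.21, adjusted p = 1.64e-04, limma), whereas its partner arm miR-146a-3p, at levels between 0.47 and 1.47, did not pass the test at -0.08. Of the 7 measured members of the list of miR-150, miR-155 and miR-146, miR-146a-5p was the only one called, beside 11.3% of all miRNAs.

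Both arms of miR-28a were higher, by 1.33 for the 3p arm and 0.81 for the 5p arm. The same held for miR-199b-5p (1.43), miR-152-5p (1.19) and, with smaller differences, miR-107-3p (0.60), miR-872-3p (0.60), miR-450b-5p (0.59), miR-342-3p (0.51) and miR-744-5p (0.37). Of the 6 fits that left out 1 sample, miR-342-3p was called in 2 and miR-744-5p in 0. The level of miR-107-3p, from an intron of Pank1, lay within 9.45 and 9.51 in the control line and within 10.02 and 10.12 in the Ikaros line. Of 129 hairpins with both arms measured, 86 (66.7%) had the same sign in both arms, and in 8 hairpins both arms were called, each time in the same direction. These 8 were the 5 hairpins of the Clcn5 cluster and those of miR-10a, miR-28a and miR-200a. In 15 others a single arm was called, and 13 of these 15 had the same sign in both arms.

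**Figure D3:**
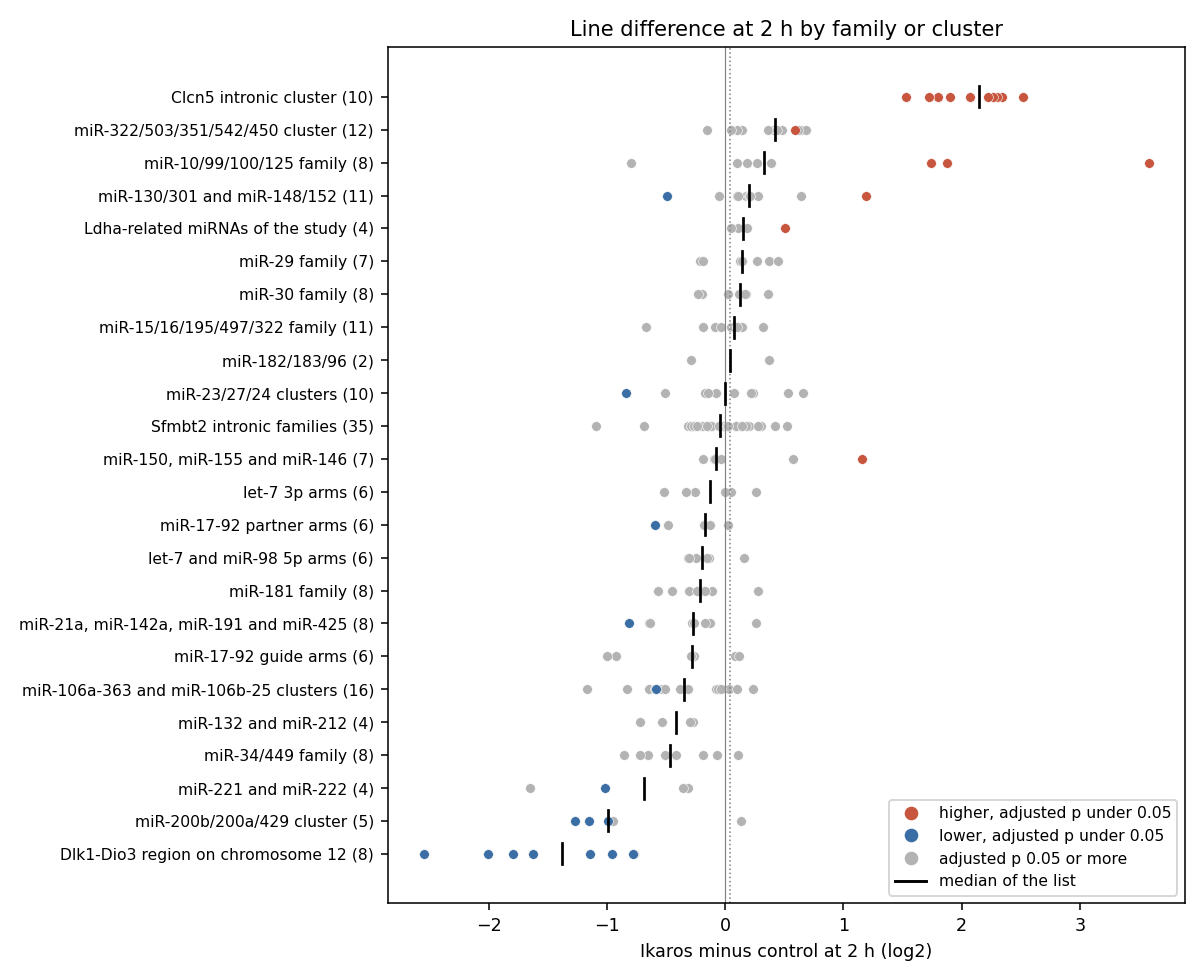
Line difference at 2 h (Ikaros minus control, log2) for the members of 24 families or clusters, ordered by the median of the list (black bar), with the number measured in parentheses and the dotted line at the median of all miRNAs (0.04). Red points were called higher and blue points lower, and the Clcn5 cluster (10 of 10 higher) and the Dlk1-Dio3 region (7 of 8 lower) lie at opposite ends.

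The largest lower group came from the Dlk1-Dio3 region on chromosome 12, a domain whose miRNAs are expressed from the maternal chromosome. This grouping was made after the values were seen and is given as a description. Of the 8 miRNAs measured from it, 7 were lower in the Ikaros line, against 4.05% of all miRNAs, and the median difference of the 8 was -1.38. The eighth, miR-434-3p, was at -0.77 and did not pass the test (adjusted p = 0.18, limma). Its mean level at 2 h was 1.17. Those of miR-381-3p, miR-409-3p and miR-434-5p were 1.11, 1.20 and 1.22, also in the lowest quartile (up to 1.85). The fit without the lowest 25% of miRNAs held 4 of the 7, and all 4 were called.

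The level of miR-127-3p, whose hairpin is antisense to an exon of the imprinted gene Rtl1, was 3.81, 5.36 and 4.43 in the control line and 2.27, 2.46 and 1.23 in the Ikaros line. Its difference of -2.55 (SE 0.39, adjusted p = 1.67e-05, limma), a 5.84-fold lower level, was called in all 16 alternative fits. For miR-541-5p the control values were 2.70, 3.59 and 3.88 and the Ikaros values 1.23, 1.02 and 1.90, a difference of -2.004. For miR-411-5p they were 2.71, 3.94 and 2.70 against 0.93, 1.82 and 1.21, a difference of -1.80. The members of the region did not overlap between the lines, apart from miR-434-3p. Control replicate 2 was the highest control sample for miR-127-3p, miR-411-5p, miR-410-3p, miR-409-3p and miR-381-3p. Without that sample 4 of the 7 were still called. With only the 6 samples of 2 h in the model 2 of the 7 were called, and with the sequencing batch as a covariate 1 was, miR-127-3p.

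**Figure D4:**
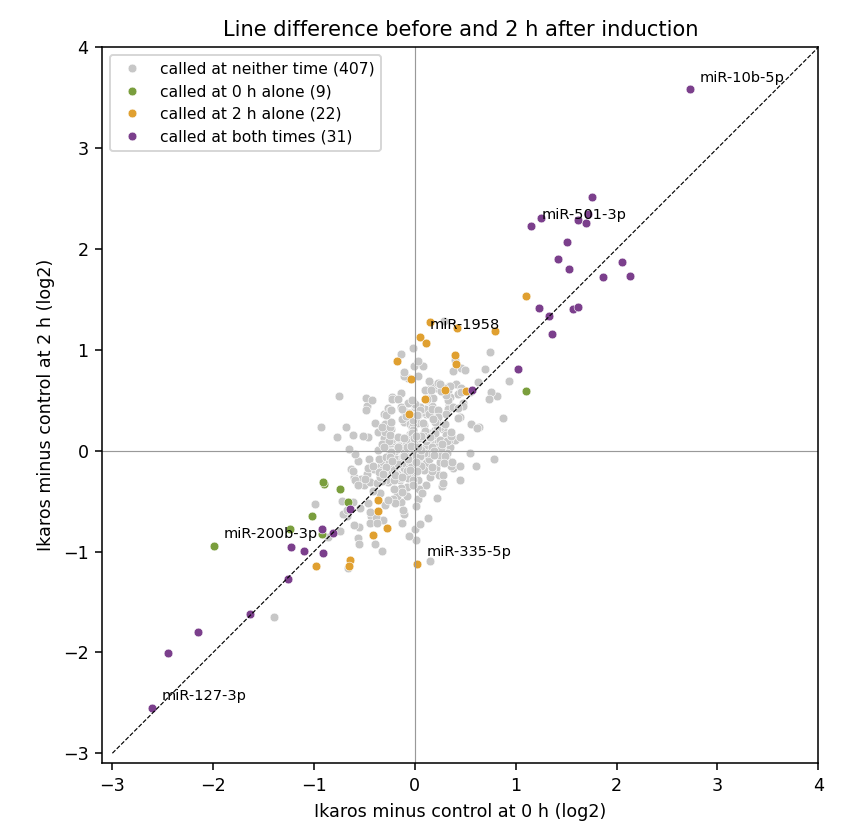
Line difference at 2 h against that at 0 h (both Ikaros minus control, log2), with 1 point per miRNA and the dashed line at equality. The 31 miRNAs called at both times (purple) lie in the upper right and lower left, and the 22 called at 2 h alone (orange) were mostly of smaller size.

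The cluster of miR-200b, miR-200a and miR-429 was also grouped after the values were seen. Its miRNAs target the Zeb repressors of epithelial genes. Of its 5 measured miRNAs 3 were lower, against 4.05% of all miRNAs, namely miR-200a-5p (-1.27), miR-200a-3p (-1.15) and miR-429-3p (-0.99). The most abundant of them, miR-429-3p, was at 6.59, 6.85 and 6.56 in the control line and at 6.07, 5.72 and 5.24 in the Ikaros line. A further member, miR-200b-3p, was at -0.95 without overlap and did not pass the test (adjusted p = 0.068, limma). The other arm of that hairpin, miR-200b-5p, went the other way at 0.13 and was not called either (adjusted p = 0.85, limma). None of the 3 was called with only the 6 samples of 2 h or with the sequencing batch as a covariate, and miR-200c-3p, from another locus, was at 0.51 (adjusted p = 0.16, limma).

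Among abundant miRNAs, miR-21a-5p was lower in the Ikaros line. It is a widely expressed miRNA that is cut from an exon of Vmp1 (chr11:86584067-86584158, minus strand). Its control values of 15.13, 15.09 and 15.15 lay very close together, and its Ikaros values were 14.09, 14.32 and 14.52. The difference was -0.81 (SE 0.14, adjusted p = 8.18e-05, limma). With quantile normalisation it was -0.35 and was not called.

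For miR-221-3p, which targets Kit and Cdkn1b, the control values were 9.87, 9.59 and 9.93 and the Ikaros values 8.47, 8.90 and 8.99, a difference of -1.01 (SE 0.18, adjusted p = 1.64e-04, limma). The difference of its partner arm miR-221-5p was larger, at -1.65, but its SD was 1.81 in the control line and 1.59 in the Ikaros line, and it did not pass the test. The remaining lower miRNAs included miR-335-5p (-1.12), from an intron of the imprinted gene Mest, miR-151-3p (-1.09), miR-27a-5p (-0.84), miR-26a-2-3p (-0.76), miR-92a-1-5p (-0.60), miR-20b-5p (-0.58) and miR-130b-5p (-0.49).

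Of the 5 highest mean levels at 2 h, only that of miR-10a-5p was called. The others were miR-191-5p (18.52), miR-181a-5p (18.08), miR-16-5p (16.48) and miR-25-3p (15.27), with line differences of -0.12, -0.57, -0.09 and -0.06. miR-181a-5p, which is abundant in early lymphocytes, was just short of the threshold (adjusted p = 0.051, limma). With the culture batch as a block its adjusted p-value was 0.014 (limma).

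Several families of known roles in B cell development and the cell cycle had no called member at 2 h. These were the 5p and the 3p arms of let-7 (0 of 6 each), the miR-15 and miR-16 family (0 of 11), the miR-29 family (0 of 7), the miR-30 family (0 of 8), the miR-181 family (0 of 8) and the miR-34 and miR-449 family (0 of 8), by limma at an adjusted p under 0.05. The same was true of miR-132 and miR-212 (0 of 4), of miR-182, miR-183 and miR-96 (0 of 2), of the miR-17-92 guide arms (0 of 6) and of the intronic families of Sfmbt2 (0 of 35). Of the 101 members of these lists 11 had an unadjusted p under 0.05, compared with 123 of all 469 miRNAs, and the medians of the lists lay between -0.46 and 0.14. The miR-34 and miR-449 family held 4 of these 11, with 7 of its 8 members below 0 and the lowest median, -0.46. Of the miR-17-92 partner arms 1 of 6 was called, miR-92a-1-5p, whose lines overlapped at 2 h. It was called in 2 of the 6 fits that left out 1 sample. Of the miR-106a-363 and miR-106b-25 clusters 1 of 16 was called, miR-20b-5p, which was called in 1 of those 6 fits. The median of that list was -0.35 with 13 of 16 members below 0. The share of all miRNAs called was 11.3%.

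While 11.3% of all miRNAs were called, a single member was called in each of 4 further lists. In the clusters of miR-23, miR-27 and miR-24 it was 1 of 10 (miR-27a-5p), among miR-221 and miR-222 1 of 4 (miR-221-3p), and among miR-21a, miR-142a, miR-191 and miR-425 1 of 8 (miR-21a-5p). The cluster of miR-322, miR-503, miR-351, miR-542 and miR-450 had 11 of 12 members above 0 with a median of 0.43, and 1 of them was called (miR-450b-5p). The list of miR-130, miR-301, miR-148 and miR-152 had 1 called in each direction (miR-152-5p and miR-130b-5p). Of the 4 miRNAs that the study relates to Ldha, a choice drawn from these same samples, miR-342-3p was called higher and the other 3 were not. Among 135 miRNAs with numbers of 4 digits, 8 were called, all higher, against 7.25% of all miRNAs called higher.

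The line differences at 2 h were set against those of the same lines before induction, which were measured in other culture batches (4, 5 and 6 rather than 1, 2 and 3). The layout of sequencing batches differed as well, since the 0 h samples of both lines lay mostly in the batch of the Ikaros samples of 2 h. At 0 h 40 of 469 miRNAs (8.53%) were called, and 31 of these were among the 53 of 2 h with the same sign. They made up 58.5% of the 2 h calls and 77.5% of the 0 h calls, and none was called in opposite directions. All 40 of the 0 h calls had the same sign at 2 h. Likewise, 49 of the 53 calls of 2 h had the same sign at 0 h, and so did 320 (68.2%) of all miRNAs. Across the 469 miRNAs the line differences at 2 h and 0 h, which share no sample, had a Pearson correlation of 0.789 and a Spearman correlation of 0.612.

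No miRNA differed between the lines at 2 h beyond its difference at 0 h (limma, 0% called, 15 at an unadjusted p under 0.05, smallest adjusted p = 0.996). The median SE of this difference of differences was 0.41, compared with 0.29 for the line difference at 2 h, so that moderate shifts were not detectable with these replicates. For the Clcn5 cluster the median line difference was 1.52 at 0 h, with 9 of 10 called, and 2.15 at 2 h. All 10 were called at every later time, when the share of all miRNAs called was 15.1% (6 h), 21.7% (12 h), 29.9% (18 h) and 39.9% (24 h), and the median of the cluster was 2.03, 2.34, 2.57 and 3.08. The Dlk1-Dio3 miRNAs were at a median of -1.43 at 0 h and -1.38 at 2 h, with 7 of 8 called at both times. For miR-10b-5p the difference was 2.73 at 0 h, and for miR-10a-5p 2.05. Over all miRNAs, the line difference at 24 h departed from that at 2 h in 67 (14.3%, limma).

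The largest shift within the Clcn5 cluster was in miR-501-3p, whose line difference was 1.16 at 0 h and 2.23 at 2 h (unadjusted p = 0.029 for the shift, limma). For the 34 miRNAs higher at 2 h the median shift beyond 0 h was 0.44, and for the 19 lower ones -0.01, against 0.08 over all miRNAs. As the members were chosen by their 2 h values, which enter the shift, these medians are given as a description. Of the 53, 22 were called at 2 h and not at 0 h, with 14 higher and 8 lower, which is not a test of a change between the times.

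Within the Ikaros line 4 miRNAs (0.853%) rose from 0 h to 2 h and none fell. They were miR-744-5p (0.72, SE 0.12, adjusted p = 6.17e-04, limma), miR-128-2-5p (1.09), miR-5128 (1.05) and miR-1933-3p (0.72), the last 2 of which were named after their values were seen. The mean level of miR-744-5p was 10.65 at 0 h and 11.38 at 2 h in the Ikaros line, and 10.71 and 11.01 in the control line. Time and culture batch cannot be told apart in these changes. The share of a sample run in the second sequencing batch was 0 to 0.5 at 0 h in both lines. At 2 h it was 1 in the control line and 0 in the Ikaros line, so the changes of the 2 lines were not measured alike. Within the control line 0 miRNAs were called between 0 h and 2 h (limma, 0%), with 24 at an unadjusted p under 0.05, compared with 26 in the Ikaros line. With only the 2 groups compared in the model the Ikaros count was 0 as well, and it was 1 after subtraction of the sample medians and 0 after quantile normalisation.

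Replicates of a 2 h group were tied at one exact value for 22 miRNAs. In 16 of them the ties were in the control line alone, in 4 in the Ikaros line alone, and in 2 in both lines. All 3 control samples were tied for miR-1958, miR-5104 and miR-449a-3p, and all 3 Ikaros samples for miR-449a-3p. In all 22 the tied value was the lowest of its group, the mean level at 2 h was between 0.50 and 2.33, and the tied value was found in no sample of the other line. For miR-449a-3p the 3 control samples were at 0.54 and the 3 Ikaros samples at 0.47. The value tied at the bottom of a group thus differed between the lines without any difference among its replicates.

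Of the 22, 7 were called (31.8%), against 11.3% of all miRNAs. Replicates tied at one value show no spread between them. The SE of these differences came from the residuals of all 36 samples of the model, the tied ones included. The largest was miR-128-2-5p, from an intron of Arpp21 (chr9:112118636-112118711, minus strand). Its control samples were at 1.09, 1.37 and 1.09, with replicates 1 and 4 tied, and its Ikaros samples at 3.33, 3.22 and 3.89. The difference of 2.29 (SE 0.25, adjusted p = 8.41e-08, limma) is thus measured from a tied control level, although the Ikaros samples were well above it. The other arm of this hairpin, miR-128-3p, which is also cut from the hairpin Mir128-1, was at 0.14 and was not called.

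For miR-1958 all 3 control samples were at 0.44 and the Ikaros samples at 1.29, 1.60 and 1.84, a difference of 1.13. For miR-3058-5p control replicates 1 and 4 were tied at 0.47 and replicate 2 was at 0.75, and the Ikaros samples were at 2.337, 1.501 and 2.102, a difference of 1.42. The other higher ones were miR-5624-3p (1.07) and miR-143-3p (0.95). Control replicate 2 of miR-5624-3p, at 1.34, was above Ikaros replicate 4, at 1.27, so that its lines overlapped. Both tied lower miRNAs belong to the Dlk1-Dio3 region. For miR-409-3p (-1.14) Ikaros replicates 1 and 4 were tied at 0.44 and the control samples were at 1.47, 2.14 and 1.72, and for miR-381-3p (-0.95) the same Ikaros replicates were tied at 0.50.

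Without the miRNAs that had ties, 43 were called, all of them among the 53. The number of miRNAs with ties was 18 in the control line and 6 in the Ikaros line at 2 h. In the control line it ran from 4 to 28 over the times from 2 h to 18 h and was 0 at 0 h and at 24 h, and in the Ikaros line it ran from 2 to 6 over all times. The control groups with ties are those drawn in the other sequencing batch. The part of the correction in the ties was not tested.

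**Figure D5:**
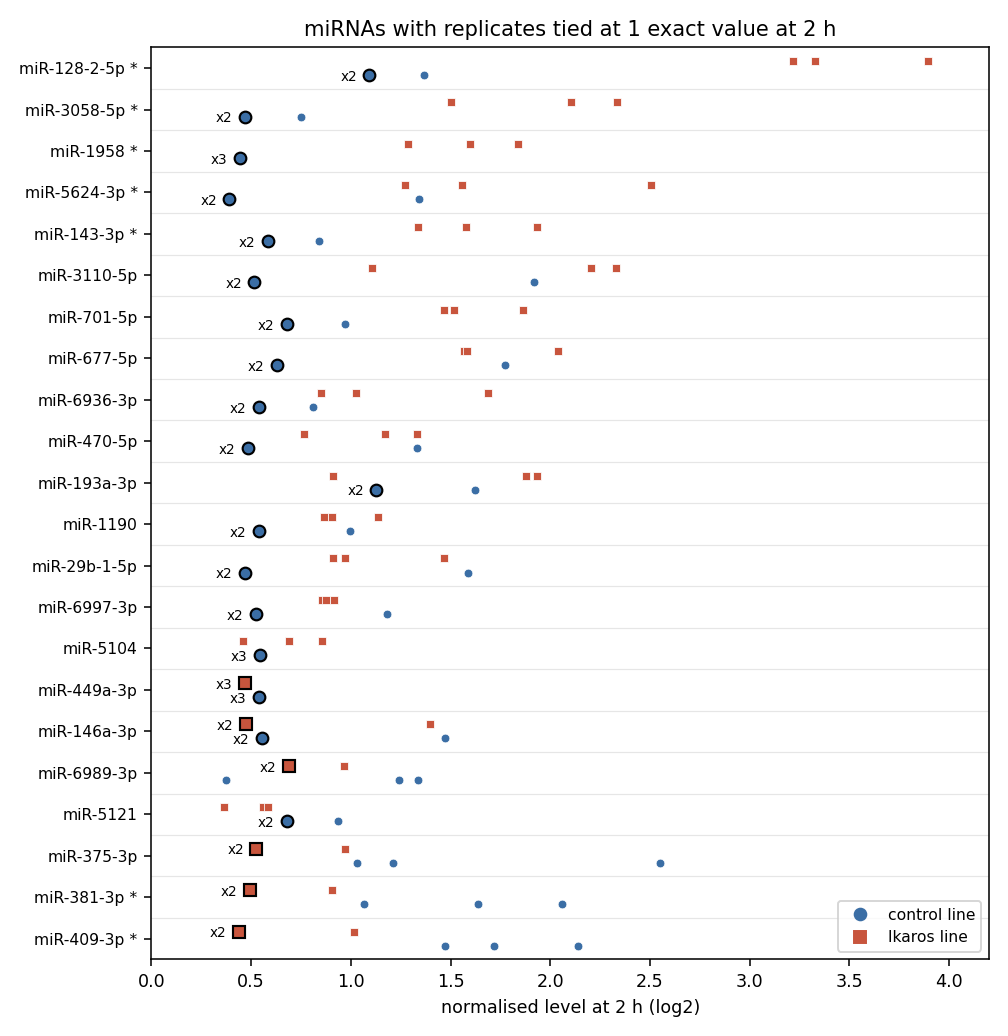
Normalised level at 2 h (log2) of the 22 miRNAs with replicates tied at one exact value, with 1 point per sample, blue circles for the control line and red squares for the Ikaros line. Symbols outlined in black stand for 2 or 3 tied replicates, as written beside them, asterisks mark the 7 called miRNAs, and the tied symbol is the lowest of its line in every row.

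The label of the cells as pre-B lymphocytes was checked against miRNAs. All 10 of a list of blood cell miRNAs were measured, with miR-181a-5p, miR-191-5p and miR-142-5p among the 10 most abundant of the table. Their summed share of the linear total was 55.8% to 60.1% in the control samples and 41.0% to 48.4% in the Ikaros samples, and it lies beside the larger share of miR-10a-5p in the Ikaros line. Over the 6 samples, miR-191-5p alone made up 24.3% to 30.5% and miR-181a-5p 11.5% to 25.3%, whereas miR-150-5p was at a mean level of 3.82. How far the list tells pre-B cells from other cells was not tested. Of 17 miRNAs that mark other cell types 9 were in the table, with a summed share of 0.673% to 0.808% in the control line and 0.688% to 0.762% in the Ikaros line, nearly all of it miR-9-5p. The liver, muscle and red cell markers miR-122-5p, miR-1a-3p, miR-133a-3p and miR-451a were not among the 469. The called miR-126a-3p, miR-143-3p and miR-200a-3p are on this second list. The part of other cells in these 3 differences was not tested.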

How the data were processed

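Small RNA libraries (TruSeq kit) of the B3 lines were analysed from 1 table of 469 miRNAs in 36 samples. The deposited values are log2 levels normalised by the authors, and the log base was inferred from the values. The authors aligned reads with Novoalign to mouse miRNAs of miRBase, and multiBamCov gave the counts. After a filter on CPM (NOISeq), these were corrected for GC content (cqn), normalised by TMM and adjusted for sequencing batch with ComBat, and technical replicates were then averaged. The submitters' processing notes name Novoalign, bedtools and the build mm10. Tool versions are not given in the sources used here.

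The values were tested with limma 3.58.1 in R 4.3.3 (lmFit, eBayes with trend), with 1 mean for each of the 12 groups and all 36 samples, and adjusted by Benjamini-Hochberg over 469 miRNAs. The tests were two-sided, and the fit was tested on simulated data. Alternatives changed the samples, block, sequencing batch term, scaling, variance model, low filter (the lowest 25% by mean) and tied miRNAs. With 3 against 3 samples an exact permutation test of a single miRNA cannot go below p = 0.1, so none was used.

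Named miRNAs were the 10 largest called differences in each direction with the same sign in all pairs and no ties, all called with ties, partner arms, called members of 23 lists and the 5 highest levels. Members and lists were chosen with earlier results of these data known, and the Dlk1-Dio3 and miR-200 groups after the values were seen. The labels tie same-numbered samples of both lines at a time to one culture batch. Their deviations from the group means correlated by 0.268 over all pairs at 2 h (0.114, 0.247 and 0.383 for numbers 1, 2 and 4). Hairpins were located by name from RefSeq coordinates (GRCm38.p6) for 47 of the 53 called miRNAs, and the genes that overlap them were taken from GENCODE vM21. Descriptive steps used Python 3.11.15, pandas 2.3.3 and matplotlib 3.10.9.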

Additional observations from a re-analysis of the deposited data

Results flagged for a closer look

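For 14 of the 53 miRNAs called at 2 h, the line difference at 24 h differed from that at 2 h by a limma contrast of the differences, in the same culture batches and at an adjusted p under 0.05 (67 of 469 miRNAs, 14.3%, passed it). This contrast was added after the data were seen, and values are line differences on the log2 scale at 24 h minus those at 2 h. Within the Clcn5 cluster the difference was wider at 24 h for miR-501-5p (1.78), miR-362-3p (1.67) and miR-532-5p (1.22). Of the lower miRNAs, miR-151-3p (3.08), miR-26a-2-3p (2.07) and miR-21a-5p (1.21) moved upward, and their line differences at 24 h were 1.99, 1.30 and 0.40. The difference of miR-92a-1-5p moved from -0.60 to -3.29 (-2.70), and that of miR-27a-5p moved further down as well (-1.04). That of miR-342-3p, by contrast, moved up (0.77). For 5 higher miRNAs the difference was smaller at 24 h or had passed below 0, namely miR-128-2-5p (-2.30), miR-3069-5p (-1.68), miR-1958 (-1.30), miR-146a-5p (-1.09) and miR-126a-3p (-0.74). The control replicates of miR-128-2-5p and miR-1958 were tied at 2 h. The 3 Ikaros samples of 24 h and those of 2 h are in one sequencing batch, whereas the control samples of the 2 times are mostly in different ones.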

How the results depend on the processing

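All 53 miRNAs called at 2 h kept their direction under every alternative. Only the 6 samples of 2 h in the model gave 16 calls with and without the replicate block, and the sequencing batch as a covariate gave 11. Leaving out 1 sample gave 34 to 47 calls, with 34 without Ikaros replicate 2. Quantile normalisation gave 24 higher and 27 lower, against 34 and 19, with the median of all miRNAs at -0.03. The other alternatives without the block gave 43 to 54. For the Ikaros line between 0 h and 2 h, the 4 calls became 0 with only the groups compared, 1 with the sample medians subtracted, 0 with quantile normalisation, and 1 to 3 without 1 sample. The 0 calls beyond 0 h and between 0 h and 2 h in the control line remained 0 throughout. Those between 2 h and 24 h in the control line were 0 to 1 without 1 sample, with 1 without control replicate 2. The lines did not overlap for 30.5% to 39.2% of miRNAs without 1 sample, against 26.0%, with 39.2% without Ikaros replicate 4. Fewer samples make it easier not to overlap. The cause of these shifts was not tested.

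With the culture batch as a block in the model of all samples, 62 miRNAs were called at 2 h (39 higher, 23 lower), 52 of them among the 53, and miR-130b-5p was lost. The replicate block left the counts of 0, 4, 0 and 0 in the other comparisons. Depth is unknown from the table, and the ties at the lowest levels limit the miRNAs there.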
